A study of Mus musculus with 18 samples.

Results

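The nuclear genes of the mitochondrial respiratory chain were followed through RNA-seq of the mouse arcuate nucleus, the region at the base of the hypothalamus that controls feeding and reproduction. Members were all genes whose symbols begin with Ndufa, Ndufb, Ndufc, Ndufs, Ndufv, Uqcr, Cox4 to Cox8 or Atp5, together with Sdha to Sdhd, Cyc1 and Cycs. The names matched 92 of 23235 symbols, and the 89 with a mean of at least 0.5 FPKM over all libraries were kept. FPKM gives the fragments on a gene relative to its transcript length and to the fragments in the library. The 89 were 38 genes of complex I, 4 assembly factors of complex I, 4 genes of complex II, 9 of complex III, 16 of complex IV, 17 of complex V and Cycs, which encodes cytochrome c. The 3 names left out were Cox7b2 (mean 0.270 FPKM), Cox8b (0.272 FPKM) and Cox8c, which was listed at 0 in every library. The lowest kept were Ndufs5 (mean 1.49 FPKM), Cox4i2 (3.17 FPKM) and Ndufa4l2 (3.41 FPKM). No gene of the mitochondrial genome was used, so the values describe only the part of the chain encoded in the nucleus.

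The mice were ovariectomized C57/BL females of 3 genotypes, KIKO, ERKO and WT. Each genotype received oil or estradiol benzoate (E2), which was given as 250 ng at day 5 followed by 1500 ng at day 6, and tissue was taken 24 h after the day 6 injection and a 1 h fast. The 6 groups, KIKO E2, KIKO oil, ERKO E2, ERKO oil, WT E2 and WT oil, held 3 libraries each (n = 3 throughout unless stated). ERKO mice lack estrogen receptor alpha, which Esr1 encodes. The name KIKO usually stands for a null allele paired with a knock-in whose receptor does not bind estrogen response elements. The labels do not say how either allele was built. The labels also do not say whether libraries came from separate animals, so p-values measure the spread between libraries. All groups share the loss of the ovaries and a single strain name.

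The respiratory chain sits in the inner mitochondrial membrane. Complex I takes electrons from NADH and complex II from succinate, ubiquinone carries them to complex III, cytochrome c carries them on to complex IV, and complex IV passes them to oxygen. Complexes I, III and IV pump protons, and complex V lets them flow back to make ATP. The nuclear factors NRF1 and GABPA, the estrogen-related receptors (ERR) and YY1 are known to bind promoters of many of these genes. In brain the chain supplies most of the ATP that neurons spend on ion pumping.

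RefSeq promoter windows, from 250 bases before to 50 bases after the gene start on GRCm38.p6, were found for 73 of the 89 genes. The NRF1 core GCGCATGC stood in 12 of them (16.4%, against 5.06% of 11599 promoters of genes tested and 2.8% of all 27025 promoters), read on both strands. The YY1 letters AAGATGGC stood in 10 (13.7%, against 4.29% and 2.88%). The ETS letters CCGGAAGT of GABPA and its relatives stood in 5 (6.85%, against 7.5% and 4%). The ERR letters CAAGGTCA stood in 4 (5.48%, against 1.14% and 1.53%). A match describes the letters and not a bound site. The 120 bases before the start are shown for 3 genes to let such letters be seen in place, 5′ to 3′ along each gene's strand, with the match in capitals.
Cycs, chr6:50566570-50566689, minus strand, NRF1 core beginning 60 bases before the start: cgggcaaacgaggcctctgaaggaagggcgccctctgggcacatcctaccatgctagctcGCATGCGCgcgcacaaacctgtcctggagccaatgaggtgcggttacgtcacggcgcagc
Ndufa11, chr17:56717642-56717761, plus strand, NRF1 core beginning 60 bases before the start: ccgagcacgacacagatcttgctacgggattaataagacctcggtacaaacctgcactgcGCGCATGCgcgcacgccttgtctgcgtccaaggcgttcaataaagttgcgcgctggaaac
Atp5g3, chr2:73911327-73911446, minus strand, ERR letters beginning 52 bases before the start: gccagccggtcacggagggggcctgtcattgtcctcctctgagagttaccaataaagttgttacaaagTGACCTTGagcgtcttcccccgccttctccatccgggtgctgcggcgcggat

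Most members were abundant, and the highest were subunits of complexes IV and V. Atp5k, the e subunit of the membrane part of ATP synthase, averaged 678 FPKM over the 18 libraries. Cox4i1, the main form of the largest nuclear subunit of complex IV, averaged 669 FPKM, and Cox8a, a small membrane subunit, 643 FPKM. In complex I the leaders were Ndufa4 (mean 533 FPKM), now assigned to complex IV by its biochemistry, and the accessory subunit Ndufa3 (413 FPKM). In complex III they were Uqcrh and Uqcr10, and Uqcrh, the hinge protein, averaged 379 FPKM. In complex II, Sdha, the flavoprotein that oxidizes succinate, averaged 168.5 FPKM and the iron-sulfur subunit Sdhb 141.7 FPKM. Cycs averaged 27.4 FPKM. A few names that the rule takes in are not core chain subunits. Cox4nb is a subunit of a membrane protein insertase, Atp5s is a factor, and Atp5sl is named by its likeness to Atp5s.

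One library stood apart, ERKO E2 replicate 3. The correlation of its log2 values with any other library was 0.919 to 0.954, while pairs of the other 17 reached 0.963 to 0.995. Its FPKM summed to 628541 over all genes, against 418191 to 492135 in the other 17, and its relative depth was the lowest, with depths from 0.728 to 1.50 over the libraries. Respiratory genes took 5.34% of its summed FPKM, against 2.89% to 3.77% in the others. Esr1 was 0.212 FPKM there, against 1.91 and 2.35 in ERKO E2 replicates 1 and 2. It was 1.62 to 2.39 in ERKO oil, 2.91 to 4.08 in KIKO oil and 5.38 to 11.9 in WT oil. With all 18 libraries in the fit, its ERKO to WT difference under oil was -1.49 ± 0.32 on the log2 scale (SE, limma adjusted p = 0.0367). Under E2 it was -1.34 ± 0.32 (adjusted p = 0.0569), and -0.88 ± 0.25 without ERKO E2 replicate 3 (adjusted p = 0.0373). All 11 marker genes of arcuate neurons, among them Agrp, Npy, Pomc and Kiss1, were above the floor. A summed list of 9 pituitary genes ran from 2.36 to 365 FPKM over the libraries and overlapped between the groups. Counts of genes that passed are given below with and without this library, and changes of single genes are from the fit without it unless stated.

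Summed over the 89 genes, the group mean was lowest in ERKO, intermediate in KIKO and highest in WT under each treatment, with ERKO E2 replicate 3 left out. The sum was 14067, 12321 and 15464 FPKM in KIKO E2 and 14974, 13546 and 14659 FPKM in KIKO oil. It was 12733, 12595 and 33554 FPKM in ERKO E2 and 13005, 12563 and 12066 FPKM in ERKO oil. It was 18233, 17320 and 14818 FPKM in WT E2 and 18075, 16038 and 14440 FPKM in WT oil. Each ERKO oil library lay below each WT oil library, while KIKO oil overlapped WT oil. KIKO E2 overlapped both WT E2 and ERKO E2 replicates 1 and 2, and those ERKO libraries lay below each WT E2 library. ERKO oil reached 0.775 of the WT oil mean and KIKO oil 0.889 of it. Under E2, KIKO reached 0.831 of the WT mean, and ERKO replicates 1 and 2 reached 0.754 of it. In tissue made of many cells, fewer cells of a type and less RNA per cell cannot be told apart. The labels' library codes run in genotype order, so genotype and any order of processing cannot be told apart.

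**Figure D1:**
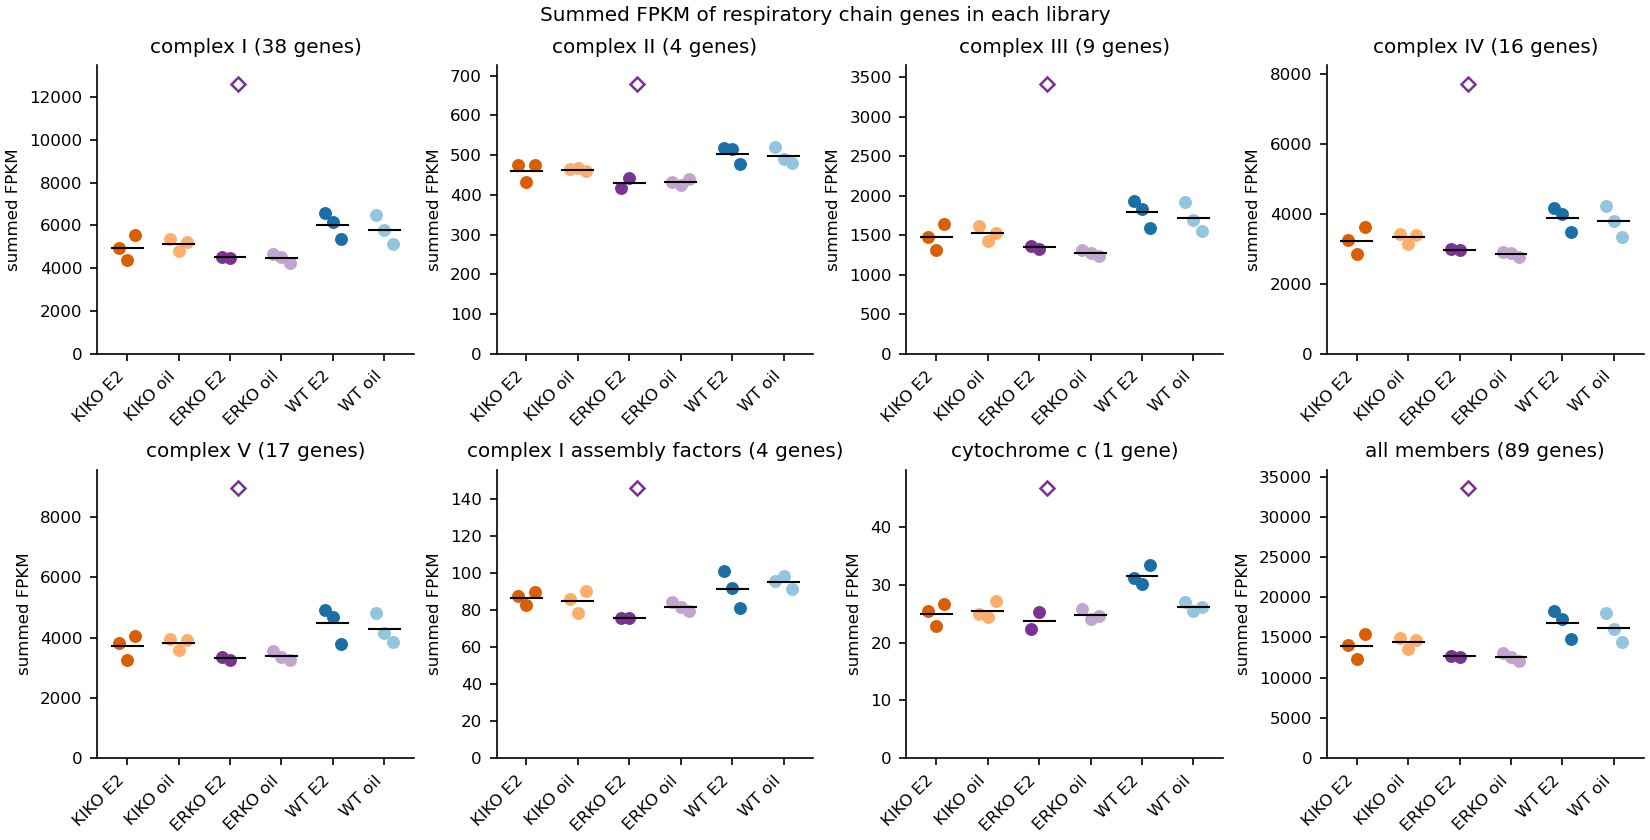
Summed FPKM (vertical axis) of each complex in each library (points), by group; bars are group means and the open diamond is ERKO E2 replicate 3, left out of its bar. Complex I sums were 4252 to 4684 in ERKO oil, all below the 5115 to 6480 of WT oil, and the diamond stands at 12613.

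The same order of group means held within each of the 5 complexes under oil. Complex I summed to 4684, 4540 and 4252 FPKM in ERKO oil, against 6480, 5775 and 5115 FPKM in WT oil. Complex II summed to 432, 424 and 440 FPKM in ERKO oil, against 521, 490 and 480 FPKM in WT oil. Complex III summed to 1313, 1274 and 1237 FPKM in ERKO oil, against 1921, 1692 and 1550 FPKM in WT oil. In none of these did the groups overlap. Complex IV summed to 2921, 2879 and 2765 FPKM in ERKO oil, against 4223, 3805 and 3333 FPKM in WT oil. Complex V summed to 3546, 3341 and 3268 FPKM in ERKO oil, against 4807, 4152 and 3845 FPKM in WT oil. These groups did not overlap either, and the ERKO values lay closer together than the WT values. Cytochrome c differed: Cycs was 25.8, 24.0 and 24.7 FPKM in ERKO oil, against 27.0, 25.5 and 26.2 FPKM in WT oil, and the groups overlapped. Gene by gene, WT had the highest, KIKO the middle and ERKO the lowest group mean for 72 of 89 genes under oil. The same order was seen for 76 of 89 under E2 with ERKO E2 replicate 3 left out, and genes of 1 library are not independent. The share of all genes tested with this order was not counted. Other genes with transcripts under 600 bases had median log2 changes of -0.14 in KIKO and -0.27 in ERKO against WT under oil. The ERKO oil libraries all lay below the WT oil libraries for 59 genes (66.3%), against 18.4% of all 14774 genes tested. The KIKO oil libraries all lay below the WT oil libraries for 16 genes (18%), against 9.35% of all genes tested.

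ERKO E2 replicate 3 raised the complexes unequally. Relative to the mean of ERKO E2 replicates 1 and 2, complex I stood at 2.79 times, complex V at 2.71 times, complex IV at 2.60 times and complex III at 2.54 times. Cycs stood at 1.96 times, the complex I assembly factors at 1.93 times and complex II at 1.58 times. Complex II therefore made up 2.02% of the summed chain there, against 2.84% to 3.65% in the other 17 libraries, and complex I 37.6%, against 35.1% to 36.1%. The library was the highest of all 18 for 80 of 89 genes (89.9%), against 27.5% of all genes tested. The steepest rise among abundant members was in Atp5e, the epsilon subunit of the ATP synthase head, at 1407 FPKM in ERKO E2 replicate 3 against a mean of 319 FPKM in replicates 1 and 2. Atp5k stood at 1952 FPKM, against a mean of 470 FPKM in replicates 1 and 2. Other members hardly moved: Ndufs1, the largest subunit of complex I, stood at 1.02 times, Uqcrc2, a core subunit of complex III, at 1.16 times, and Sdha at 1.17 times. Cox4nb stood at 0.917 times.

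The spread among members followed transcript length. The 89 genes had a median transcript of 838 bases, against 2839 bases over the genes tested, and a median GC content of 51.6%, against 50.7%. In ERKO E2 replicate 3 minus replicates 1 and 2, members under 600 bases had a median difference of 1.58 on the log2 scale (25 genes), those of 600 to 1000 bases 1.41 (28 genes) and those of 1000 to 2000 bases 1.01 (26 genes). The 9 members of 2000 to 4000 bases had a median of 0.44. Other genes tested of the same lengths had medians of 1.19, 0.96, 0.50 and -0.02, so that the members stood above them in each class. In ERKO against WT under oil with that library left out of the fit, members of the first 3 classes had medians of -0.42, -0.30 and -0.21, against -0.27, -0.21 and -0.11 for other genes. In ERKO against WT under E2 they had medians of -0.43, -0.40 and -0.32, against -0.33, -0.26 and -0.13. In KIKO against WT under E2 they had medians of -0.29, -0.27 and -0.20, against -0.20, -0.15 and -0.06. Short genes outside the chain thus lay lower in ERKO and KIKO too, by less than the members of their length class. The other genes were not matched to the members in FPKM, and log2 of FPKM + 1 understates changes of low genes. How much of the gap between members and other genes comes from this was not tested.

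**Figure D2:**
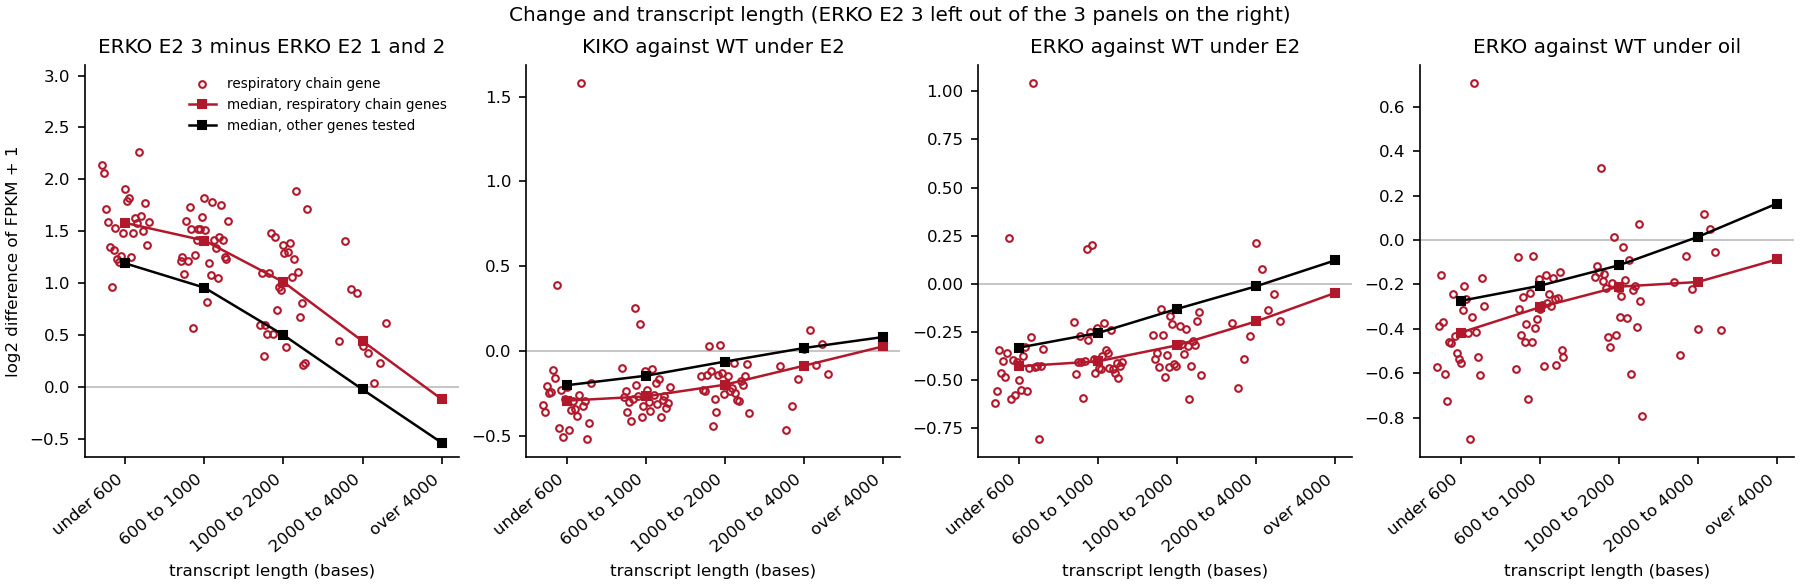
Log2 difference of FPKM + 1 (vertical axis) against transcript length class in bases (horizontal axis); open circles are respiratory chain genes, and red and black squares are the medians of members and of other genes tested. Members under 600 bases had a median of 1.58 in ERKO E2 replicate 3 minus replicates 1 and 2 and of -0.42 in ERKO against WT under oil; the class over 4000 bases holds 1 member.

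With all 18 libraries in 1 fit, none of the 89 genes passed an adjusted p of 0.05 in any of the 11 comparisons (limma on log2(FPKM + 1), two-sided, Benjamini-Hochberg over 14774 genes). Over all genes, that threshold called 1.43% in ERKO against WT under oil, 0% in E2 against oil in ERKO, 0.785% in E2 against oil in WT, 0.0135% in KIKO against WT under oil, 0.948% in KIKO against WT under E2 and 1.3% in ERKO against WT under E2. It called 0.00677% in E2 against oil in KIKO, 0% and 0.0135% in KIKO against ERKO under oil and under E2, and 0.135% and 0.278% in the differences of the E2 response from WT in KIKO and in ERKO. At an unadjusted p under 0.05 there were 14 members in ERKO against WT under oil, or 15.7% of the 89, where 21.7% of all genes had such a p. There were 9 in E2 against oil in ERKO, or 10.1%, where 7.23% of all genes did. Members were a smaller share than all genes in each of the other comparisons: 3 in ERKO against WT under E2 (3.37%, beside 11.5% of all genes), 5 in the ERKO minus WT difference in the E2 response (5.62%, beside 12.7%), and 2 each, or 2.25%, in E2 against oil in WT (beside 10.3%), KIKO against WT under oil (10.1%), KIKO against WT under E2 (8.98%) and the KIKO minus WT difference in the E2 response (4.91%). There were 0 in E2 against oil in KIKO (beside 0.948%) and in KIKO against ERKO under oil (2.3%) or E2 (3.22%). The median member change was -0.30 in ERKO against WT under oil, beside 0.02 over all genes. It was 0.44 in E2 against oil in ERKO, and 0.00 there once ERKO E2 replicate 3 was left out.

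Leaving out ERKO E2 replicate 3 did not alter the estimates in comparisons of other groups, which rest on their own group means, and altered the spread that all groups share. Cyc1 in ERKO against WT under oil stayed at -0.44, with an SE of 0.12 and an adjusted p of 0.0751 from all libraries and an SE of 0.07 and an adjusted p of 0.00202 from 17. In the fit without it, 39 members fell and 1 rose in ERKO against WT under oil, where 22.5% of all genes were called. In ERKO against WT under E2, 31 members fell and 0 rose, where 8.7% of all genes were called. In KIKO against WT under E2, 8 members fell and 0 rose, where 4.03% were called. In KIKO against WT under oil 1 fell (1.81% of all genes called), and in E2 against oil in WT 1 rose (2.69%). No member passed in E2 against oil in KIKO or in ERKO (0.00677% of all genes called in each), in KIKO against ERKO under oil (0%) or under E2 (0.0135%), or in the differences of the E2 response from WT in KIKO (0.284%) or in ERKO (0.426%). At an unadjusted p under 0.05 there were 20 members in KIKO against ERKO under oil, or 22.5% of the 89, beside 7.81% of all genes. The other shares lay nearer to those of all genes: 1 member, or 1.12%, in E2 against oil in KIKO (beside 1.59%) and in ERKO (1.53%), 2 members, or 2.25%, in KIKO against ERKO under E2 (2.94%), and 9 members (10.1%, beside 9.14%) and 11 members (12.4%, beside 13.1%) in the response differences of KIKO and of ERKO. The ERKO and KIKO comparisons within a treatment share their WT libraries. With a further library left out, the count in ERKO against WT under oil was 16 without WT oil replicate 1 or ERKO oil replicate 3 and 23 without ERKO oil replicate 1 or 2. Under E2 it was 8 without WT E2 replicate 1, 11 without WT E2 replicate 2 and 49 without WT E2 replicate 3, and in KIKO it ran from 1 without KIKO E2 replicate 2 to 17 without KIKO E2 replicate 3.

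**Figure D3:**
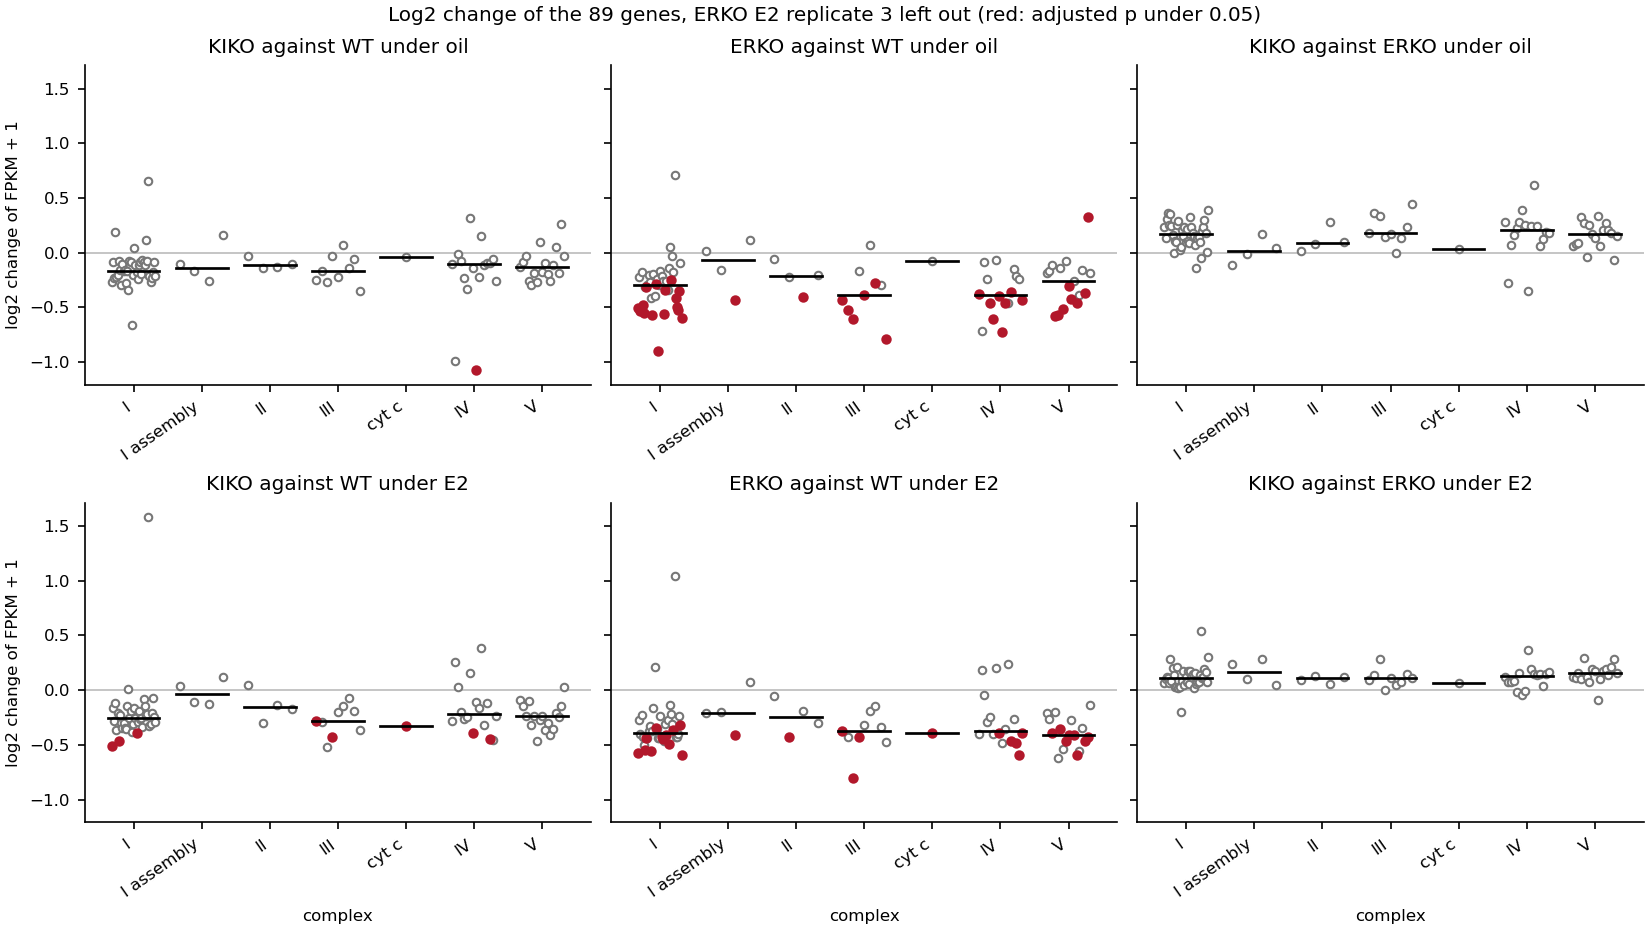
Log2 change of FPKM + 1 (vertical axis) of each of the 89 genes (circles) by complex (horizontal axis), with ERKO E2 replicate 3 left out; filled red circles had an adjusted p under 0.05 and bars are medians. In ERKO against WT under oil 39 genes fell and 1 rose, and in KIKO against ERKO no gene was called under either treatment.

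In complex I, which holds a hydrophilic arm that oxidizes NADH and a membrane arm that pumps protons, 16 of 38 genes fell in ERKO against WT under oil (median -0.30), 12 in ERKO against WT under E2 (median -0.39) and 3 in KIKO against WT under E2 (median -0.26). The shares called over all genes in these comparisons were 22.5%, 8.7% and 4.03%. Ndufa1, an X-linked subunit needed to assemble the membrane arm, was 85.8, 76.8 and 80.5 FPKM in ERKO oil, against 122, 126 and 101 FPKM in WT oil. It was 98.7, 74.2 and 97.0 FPKM in KIKO E2 and 83.3, 86.7 and 205 FPKM in ERKO E2, against 135, 127 and 121 FPKM in WT E2. The mutant libraries all lay below the WT libraries of their treatment except ERKO E2 replicate 3. With that library left out the changes were -0.51 ± 0.10 in ERKO under oil (SE, limma adjusted p = 0.00461), -0.58 ± 0.11 in ERKO under E2 (adjusted p = 0.00718) and -0.51 ± 0.10 in KIKO under E2 (adjusted p = 0.0104).

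Ndufa8, an accessory subunit of the membrane arm on chromosome 2, was 136, 131 and 120 FPKM in ERKO oil, against 221, 189 and 168 FPKM in WT oil. The groups did not overlap, and the change was -0.57 ± 0.11 (adjusted p = 0.0037). Ndufb2 had the largest fall in that comparison, at 97.2, 96.6 and 86.8 FPKM in ERKO oil against 229, 217.5 and 107 FPKM in WT oil. Its change was -0.90 ± 0.22 (adjusted p = 0.0118), and WT oil replicate 3 lay far below the other WT oil libraries. Among the catalytic subunits, Ndufv1, which binds NADH, fell by 0.35 on the log2 scale (adjusted p = 0.00705), and Ndufs8, which carries iron-sulfur clusters, fell by 0.53 (adjusted p = 0.00822). Under E2 the falls in ERKO included Ndufc2 (-0.49, adjusted p = 0.0166), Ndufs4 (-0.36, adjusted p = 0.0354), whose loss in humans and mice gives a Leigh-like encephalopathy, and Ndufv2 (-0.32, adjusted p = 0.0431). Of the 4 assembly factors, which help build complex I and do not stay in it, Ndufaf3 fell in ERKO under oil (-0.43, adjusted p = 0.012) and under E2 (-0.41, adjusted p = 0.0424). The other 3 did not pass, and the median over the 4 in ERKO against WT under oil was -0.07, turning to 0.07 with FPKM scaled to equal totals.

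In complex II, which links the tricarboxylic acid cycle to the chain, 1 of 4 genes fell in each ERKO to WT comparison and none in KIKO to WT. Over all genes, 22.5% were called in ERKO under oil and 8.7% under E2, and 1.81% and 4.03% in KIKO. The count of 1 of 4 under oil is thus near the share over all genes. Under oil the gene that fell was Sdhc, a membrane anchor, at 86.1, 83.8 and 80.4 FPKM in ERKO oil against 123, 109 and 101 FPKM in WT oil (-0.40 ± 0.08, adjusted p = 0.00494). Under E2 it was Sdhb, at 119 and 114 FPKM in ERKO E2 replicates 1 and 2 and 253 in replicate 3, against 172, 166 and 135 FPKM in WT E2 (-0.42 ± 0.10 without replicate 3, adjusted p = 0.0209). Sdha was 159, 160 and 173 FPKM in ERKO oil, against 164, 174 and 172 FPKM in WT oil, and the groups overlapped.

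In complex III, 6 of 9 genes fell in ERKO against WT under oil (median -0.39), 3 in ERKO against WT under E2 (median -0.37) and 2 in KIKO against WT under E2 (median -0.28). The shares called over all genes were 22.5%, 8.7% and 4.03%. Cyc1, cytochrome c1, passes electrons to cytochrome c. It was 98.5, 101 and 100 FPKM in ERKO oil, against 146, 131 and 129 FPKM in WT oil. It was 116, 102 and 118 FPKM in KIKO E2 and 103, 107 and 150.5 FPKM in ERKO E2, against 138, 141 and 130 FPKM in WT E2. The ERKO oil libraries lay within a narrow band well below WT oil, and KIKO E2 lay below WT E2 throughout. Its changes were -0.44 ± 0.07 in ERKO under oil (adjusted p = 0.00202), -0.37 ± 0.08 in ERKO under E2 (adjusted p = 0.0114) and -0.28 ± 0.07 in KIKO under E2 (adjusted p = 0.036). Uqcrq, a small membrane subunit, was 173, 175 and 164 FPKM in ERKO oil, against 357, 290 and 253 FPKM in WT oil (-0.79 ± 0.14, adjusted p = 0.00269). Uqcr11 fell in ERKO under oil (-0.61 ± 0.14, adjusted p = 0.01) and under E2 (-0.81 ± 0.16, adjusted p = 0.0079). Uqcrc1, a core subunit, Uqcr10 and Uqcrfs1, the Rieske iron-sulfur protein, completed the falls under oil, at -0.39, -0.53 and -0.28. Uqcrb, which has near-identical copies in the genome, was 93.4, 87.2 and 101 FPKM in KIKO E2, against 131, 115 and 135 FPKM in WT E2 (-0.43 ± 0.08, adjusted p = 0.0051).

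Cycs, which carries electrons between complexes III and IV, was 25.5, 22.8 and 26.7 FPKM in KIKO E2 and 22.3, 25.3 and 46.7 FPKM in ERKO E2, against 31.1, 30.1 and 33.4 FPKM in WT E2. All KIKO E2 libraries lay below all WT E2 libraries, as did ERKO E2 replicates 1 and 2. The change was -0.32 ± 0.08 in KIKO under E2 (adjusted p = 0.0249) and -0.39 ± 0.08 in ERKO under E2 without replicate 3 (adjusted p = 0.0116). Under oil the ERKO to WT change was -0.07 (adjusted p = 0.506), and -0.31 after correction for transcript length and GC content (adjusted p = 0.0329). Within WT, Cycs was higher in all 3 E2 libraries than in all 3 oil libraries, and the change of 0.26 did not pass (adjusted p = 0.0837).

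**Figure D4:**
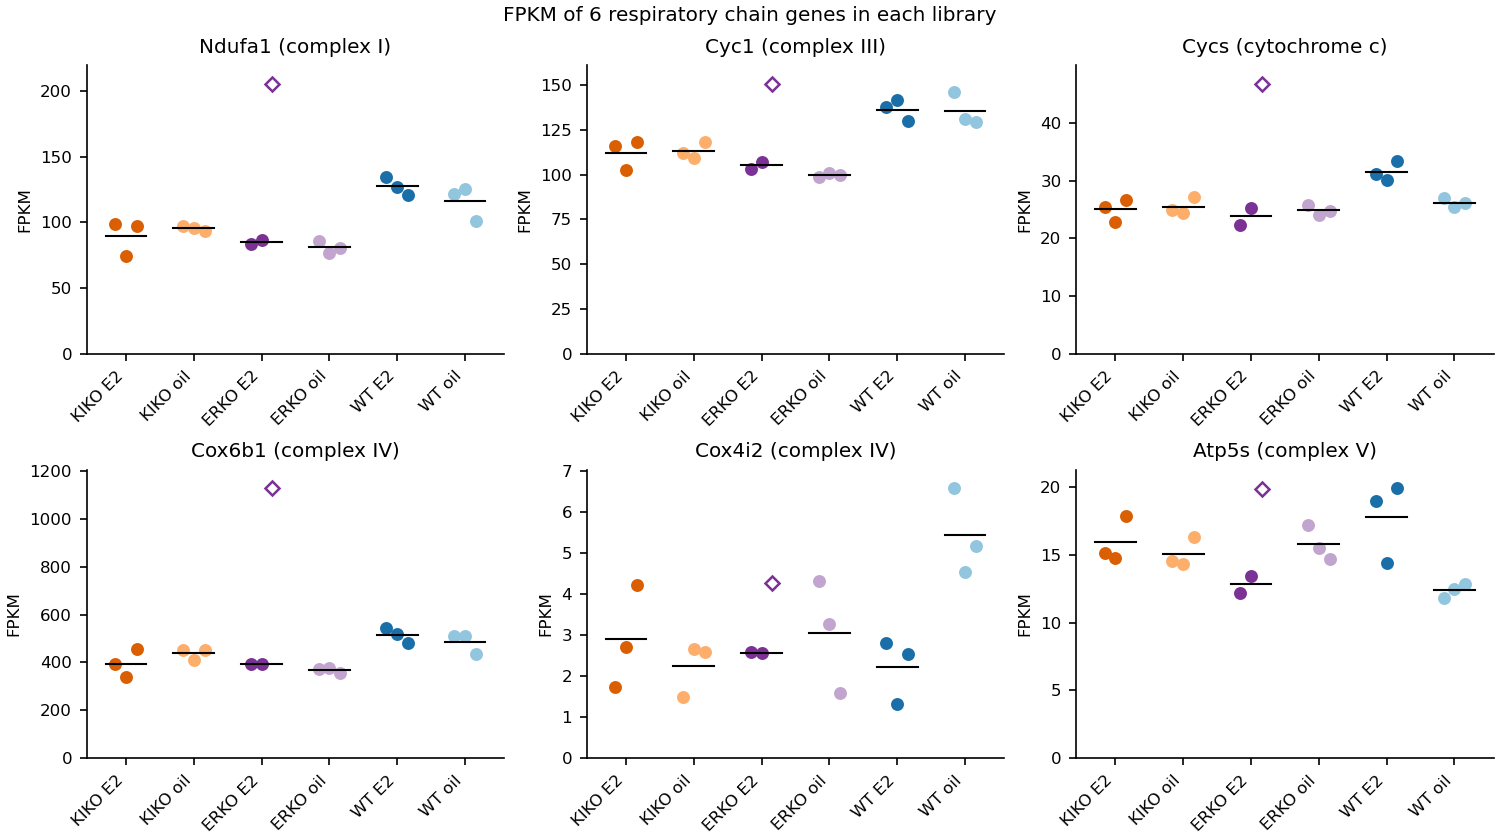
FPKM (vertical axis) of 6 genes in each library (points), by group; bars are group means and the open diamond is ERKO E2 replicate 3, left out of its bar. Cyc1 was 98.5 to 101 in ERKO oil and 129 to 146 in WT oil, while Cycs overlapped between ERKO oil and WT oil.

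In complex IV, 8 of 16 genes fell in ERKO against WT under oil (median -0.39), 5 in ERKO against WT under E2 (median -0.37) and 2 in KIKO against WT under E2 (median -0.22). The shares called over all genes were 22.5%, 8.7% and 4.03%. Cox6b1, which joins the complexes of a dimer on the outer face, was 372, 378 and 354 FPKM in ERKO oil, against 511, 509 and 437 FPKM in WT oil. It was 392, 339 and 455 FPKM in KIKO E2 and 394, 393 and 1129 FPKM in ERKO E2, against 543, 520.2 and 483 FPKM in WT E2. Apart from ERKO E2 replicate 3, all mutant libraries of these groups lay below WT. The changes were -0.40 ± 0.10 in ERKO under oil (adjusted p = 0.0108), -0.39 ± 0.11 in ERKO under E2 (adjusted p = 0.0361) and -0.39 ± 0.10 in KIKO under E2 (adjusted p = 0.0315). Cox6a1, the form of subunit VIa outside heart and muscle, was 323, 327 and 305 FPKM in ERKO oil, against 543, 511 and 410 FPKM in WT oil (-0.60 ± 0.11, adjusted p = 0.00346). Cox4i1 fell by 0.38 under oil (adjusted p = 0.0246) and Cox8a by 0.43 (adjusted p = 0.0114). Cox7c, which has a near-identical copy, fell by 0.60 in ERKO under E2 (adjusted p = 0.0216), and Cox7b fell by 0.44 in KIKO under E2 (adjusted p = 0.0408).

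Several complex IV subunits have a second form that is used in particular tissues. Cox4i2, known from lung and oxygen-sensing cells, was 2.80, 1.32 and 2.54 FPKM in WT E2, against 6.58, 4.55 and 5.18 FPKM in WT oil. It made up 0.309% ± 0.114 of the summed Cox4i1 and Cox4i2 FPKM in WT E2, against 0.804% ± 0.125 in WT oil (SD). The libraries did not overlap, and the change of -1.02 ± 0.27 did not pass (adjusted p = 0.059 without ERKO E2 replicate 3 and 0.152 with it). Cox6b2, the testis form of subunit VIb, was 4.15, 6.52 and 8.67 FPKM in KIKO oil and 9.44, 8.08 and 7.14 FPKM in ERKO oil, against 16.5, 13.9 and 12.4 FPKM in WT oil. It fell in KIKO (-1.07 ± 0.23, adjusted p = 0.0355) and in ERKO (-0.73 ± 0.23, adjusted p = 0.0367) under oil, and was the only member called in KIKO against WT under oil. Corrected for transcript length and GC content, neither change passed (adjusted p = 0.0868 in KIKO and 0.44 in ERKO). Its share of the Cox6b pair was 1.45% ± 0.50 in KIKO oil, against 2.85% ± 0.25 in WT oil (SD). Cox6a2 and Cox7a1, the heart and muscle forms, made up 0.638% to 4.01% and 0.895% to 3.39% of their sets over the 18 libraries.

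In complex V, the ATP synthase, 7 of 17 genes fell and 1 rose in ERKO against WT under oil (median -0.26), 8 fell in ERKO against WT under E2 (median -0.41) and none passed in KIKO against WT under E2 (9 members at an unadjusted p under 0.05, where 19.3% of all genes had one, median -0.24). The shares called over all genes were 22.5%, 8.7% and 4.03%. Atp5d, the delta subunit of the central stalk, was 138, 142 and 131 FPKM in ERKO oil, against 245, 205 and 173 FPKM in WT oil (-0.58 ± 0.11, adjusted p = 0.00338). Atp5g3, one of the 3 genes for the rotating c subunit, was 386, 379 and 385 FPKM in ERKO oil, against 495, 497 and 436 FPKM in WT oil (-0.31 ± 0.08, adjusted p = 0.0109). The groups did not overlap for either gene. Atp5g3 supplied 63% to 69.7% of the c subunit FPKM over the libraries, Atp5g2 15.7% to 21.6% and Atp5g1 11.7% to 18.3%. Atp5c1, the gamma subunit that turns within the head, fell in ERKO under E2 (-0.39 ± 0.08, adjusted p = 0.00887), as did Atp5f1, the b subunit of the outer stalk (-0.36 ± 0.08, adjusted p = 0.0101).

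Atp5s moved apart from the rest. It was 19.0, 14.4 and 19.9 FPKM in WT E2, against 11.8, 12.5 and 12.8 FPKM in WT oil, and 17.2, 15.5 and 14.7 FPKM in ERKO oil. Both comparison groups lay above WT oil in every library. So did KIKO oil, at 14.5, 14.3 and 16.3 FPKM, where the change from WT oil did not pass. Atp5s rose in E2 against oil in WT (0.47 ± 0.11, adjusted p = 0.0273) and in ERKO against WT under oil (0.33 ± 0.11, adjusted p = 0.0442). It fell in ERKO against WT under E2 (-0.43 ± 0.12, adjusted p = 0.0402), and all 3 changes are without ERKO E2 replicate 3. Corrected for length and GC content none of the 3 changes passed (adjusted p = 0.0556 and 0.156 for the rises and 0.0774 for the fall). Both rises rest on the same 3 WT oil libraries.

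The ERKO to WT comparisons under oil and under E2 share no library. Of the members that fell, 13 were in both lists, which was 33.3% of the 39 under oil and 41.9% of the 31 under E2. Of all 89 members, 43.8% fell under oil and 34.8% under E2, so that either list held about the same share of the other's members as the whole set did. The 13 were Ndufa1, Ndufa4, Ndufb10 and Ndufv3 of complex I with Ndufaf3, Cyc1 and Uqcr11 of complex III, Cox6b1, Cox7a2 and Cox8a of complex IV, and Atp5g3, Atp5j2 and Atp5o of complex V.

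The sizes depended on the scale. Scaling all libraries to equal FPKM totals moved the median of all genes by 0.14 in ERKO against WT under oil and by 0.11 under E2. Equal totals multiply each library by a single factor, so members and other genes moved by similar amounts. The member median in ERKO against WT under oil was -0.15 with equal totals, against -0.30 as deposited. It was -0.11 with quantile normalization and -0.07 after correction for length and GC content. The class medians of complexes I to V stayed below 0 in KIKO and ERKO against WT under all 4 scalings with ERKO E2 replicate 3 left out. Some of them were close to 0. Complex V in ERKO under oil was -0.02 with quantile normalization. Complex IV in KIKO was -0.02 under oil and -0.03 under E2 after the length and GC correction. Cycs turned to 0.07 with equal totals in ERKO and to 0.04 in KIKO under oil. With the length and GC correction, 6 members fell in ERKO against WT under oil, where 6.77% of all genes were called: Ndufa1 (-0.27), Ndufa8 (-0.26), Sdhc (-0.48), Cyc1 (-0.20), Uqcrq (-0.68) and Cycs (-0.31, adjusted p = 0.0329). In KIKO against WT under E2, 3 members fell, where 4.43% of all genes were called: Ndufa3 (-0.23), Cyc1 (-0.22) and Cycs (-0.35). In ERKO against WT under E2, 5 members fell, where 6.24% of all genes were called: Ndufv3 (-0.38), Cyc1 (-0.23), Uqcr11 (-0.43), Atp5c1 (-0.25) and Cycs (-0.41). These shares are close to or below those of all genes.

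Genes that feed, build or regulate the chain were read from lists, with ERKO E2 replicate 3 left out, in a fit that called 22.5% of all genes in ERKO against WT under oil and 8.7% under E2. Of 14 regulators of respiratory gene transcription, 1 fell and 2 rose in ERKO against WT under oil: Esrra, the gene of ERR alpha, fell (-0.46 ± 0.09, adjusted p = 0.0046), while the coactivator gene Ppargc1a (0.49 ± 0.12, adjusted p = 0.0116) and Gabpa (0.42 ± 0.11, adjusted p = 0.0165) rose. None of the 14 passed in ERKO against WT under E2 (1 at an unadjusted p under 0.05, where 26% of all genes had one). Nrip1, which encodes a corepressor induced by estrogen in breast cancer cells, rose in E2 against oil in WT (0.73 ± 0.17, adjusted p = 0.028), where 2.69% of all genes were called. Of 18 genes of the tricarboxylic acid cycle and pyruvate dehydrogenase, 2 fell in ERKO under oil, among them Mdh2 (-0.31), and 3 under E2, with Idh3a, a subunit of isocitrate dehydrogenase, at -0.37 ± 0.07 (adjusted p = 0.00499). Of 28 further assembly factors, 4 fell and 1 rose in ERKO under oil, where Sco2, a copper chaperone of complex IV, changed by -0.63 ± 0.15 (adjusted p = 0.0104). The called counts of these 3 lists under oil, 3 of 14, 2 of 18 and 5 of 28, were near or below the share over all genes. Of 15 glycolytic genes 9 fell in ERKO under oil, among them Ldha (-0.42, adjusted p = 0.00449). Of 9 mitochondrial carriers and porins, 2 fell and 1 rose; Ucp2, an uncoupling protein known in arcuate neurons, fell (-0.58 ± 0.10, adjusted p = 0.00234) and passed with all 18 libraries too (adjusted p = 0.0382).

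Ribosomal protein and import genes were read in the same way. Of 76 mitochondrial ribosomal protein genes 25 fell and none rose in ERKO under oil (median -0.24), and of 80 cytosolic ones 24 fell and none rose (median -0.29), beside the respiratory median of -0.30, the median of -0.27 over other genes with transcripts under 600 bases, and 22.5% of all genes called. Of 20 mitochondrial import genes 9 fell (median -0.30). In ERKO E2 replicate 3 the cytosolic ribosomal list stood at 3.08 times the mean of replicates 1 and 2, the mitochondrial ribosomal list at 2.32 times and the tricarboxylic acid cycle list at 1.41 times, against 2.65 times for the chain.

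Markers of cell types also differed between these groups. The summed list of 9 neuron genes was 1257 to 1332 FPKM in ERKO oil, against 1287 to 1389 FPKM in WT oil. All 6 oligodendrocyte precursor genes were detected, summing to 107.6 to 109.2 FPKM in ERKO oil against 146.8 to 174 FPKM in WT oil, without overlap. The 10 astrocyte genes summed to 1297 to 1413 FPKM in ERKO oil, against 1523 to 1756 FPKM in WT oil, and the 10 oligodendrocyte genes to 1263 to 1459 FPKM, against 1525 to 2029 FPKM. The 11 arcuate neuron genes summed to 3928 to 3988 FPKM in ERKO oil, against 6122 to 7431 FPKM in WT oil, and the 13 genes from magnocellular and other nuclei to 1953 to 4499 FPKM, against 4642 to 7461 FPKM. None of these lists overlapped either. The arcuate list holds genes that changed with E2 in WT, among them Kiss1 (-3.58) and Tac2 (-1.21), where 2.69% of all genes were called. Its sum therefore does not measure cell number alone. The 5 blood genes summed to 282.7 to 380 FPKM in ERKO oil, against 348.6 to 1321 FPKM in WT oil, and they overlapped, as did the neuron list and the lists of the remaining cell types. In ERKO E2 replicate 3 the magnocellular list summed to 20690 FPKM, against 5087 and 5546 FPKM in replicates 1 and 2, a sum that few genes carried, since its median member differed by 0.38 on the log2 scale. There, the 10 microglial genes summed to 290.2 FPKM, against 155.4 and 112.4 FPKM, with a median member difference of 0.89. No marker of these lists was at 0 in every library. Their part in the respiratory results was not tested.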

How the data were processed

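RNA from 18 libraries was analysed from 1 gene table per library, with FPKM made by the authors; per the submitters' processing notes, TopHat2 2.0 and Cuffdiff were used with build mm10. The counting of strand and the annotation are not given in the sources used here. Each of the 18 tables holds 23699 rows. Total fragments are not given; relative depth was derived from the deposited FPKM confidence bounds over 8794 genes, and no counting interval is given.

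Rows sharing a symbol were summed. Genes averaging 0.5 FPKM or more, small RNA genes apart, were tested with limma 3.58.1 (R 4.3.3) on log2(FPKM + 1). The fit held 6 group means, with 12 residual degrees of freedom for all 18 libraries. It used trended robust variances, two-sided tests and Benjamini-Hochberg adjustment over 14774 genes (threshold 0.05). Fold changes are on the log2(FPKM + 1) scale and understate changes of low genes. The fit without ERKO E2 replicate 3 had fewer residual degrees of freedom, and its ERKO E2 mean rests on replicates 1 and 2. The 11 comparisons covered the E2 response of each genotype, the genotype pairs within each treatment, and the E2 response differences from WT. The members and the lists were chosen with earlier results of these data known. Named were the 2 highest members of each class, up to 30 called members a comparison, the 3 largest changes each way, isoform sets and called list genes; some genes that this rule names are not reported here, and counts include them. The procedure was checked on simulated data with independent noise in each gene. The simulation held no outlying library and no trend on transcript length, so the check does not cover these. Lengths, GC content and near-identical copies (95% identity over 50% of a transcript, BLAST 2.17.0) came from GENCODE transcripts of GRCm38; the files' coordinates could not be placed on that build, so chromosomes only are given for genes. Tables and figures used Python 3.11.15, numpy 2.4.6, pandas 2.3.3 and matplotlib 3.10.9. Alternatives covered the pseudocount (0.1), the filter, the scaling, length and GC, library weights, the groups compared alone, a replicate block and each library left out; equal totals and all combinations with ERKO E2 replicate 3 left out were chosen after seeing the data.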

Additional observations from a re-analysis of the deposited data

How the results depend on the processing

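With all 18 libraries, 0 members were called in each comparison under a pseudocount of 0.1, no filter, equal totals and a replicate block; quantile normalization called 1 in ERKO against WT under oil, and length and GC correction called 2 in ERKO against WT under E2. Fitting the groups compared alone called 29 in ERKO against WT under oil. Library weights, which gave ERKO E2 replicate 3 a weight of 0.051, called 27 there, 1 in KIKO against WT under oil, 1 in KIKO against ERKO under oil, 16 in KIKO against WT under E2 and 31 in ERKO against WT under E2. Leaving out ERKO E2 replicate 3 gave 40 called in ERKO against WT under oil, 31 in ERKO against WT under E2, 8 in KIKO against WT under E2, 1 in KIKO against WT under oil and 1 in E2 against oil in WT. Without that library, the ERKO against WT count under oil was 26 with equal totals, 18 with quantile normalization, 6 with length and GC correction and 41 with a replicate block. The ERKO against WT count under E2 was then 19, 4, 5 and 33, the KIKO against WT count under E2 6, 3, 3 and 6, and the counts in KIKO against WT under oil and in E2 against oil in WT were 1, 1, 0 and 1. The labels give no pairing of libraries. Same-numbered deviations correlated from -0.314 to 0.383, with 0.29, -0.181 and 0.383 between WT E2 and WT oil. These values do not settle whether libraries of the same number belong together. Leaving out 1 library alone, ERKO E2 replicate 3 apart, called 0 throughout. Over all fits that left out a library, alone or beside ERKO E2 replicate 3, the counts ran from 0 to 48 in ERKO against WT under oil, 0 to 49 in ERKO against WT under E2, 0 to 17 in KIKO against WT under E2, 0 to 4 in KIKO against WT under oil, 0 to 2 in E2 against oil in WT and 0 to 2 in the E2 response difference of ERKO from WT. Beside ERKO E2 replicate 3, leaving out 1 more library made the ERKO against WT count under oil 16 without WT oil replicate 1 or ERKO oil replicate 3, 23 without ERKO oil replicate 1 or 2, 28 without WT oil replicate 2 and 48 without WT oil replicate 3. Under E2 it was 8 without WT E2 replicate 1, 11 without WT E2 replicate 2 and 49 without WT E2 replicate 3, and in KIKO against WT it was 16 without WT E2 replicate 3, 17 without KIKO E2 replicate 3, 3 without WT E2 replicate 2, 2 without WT E2 or KIKO E2 replicate 1 and 1 without KIKO E2 replicate 2. Of 2296 class medians under alternatives, 1982 lay within 1 SD of the value reported and 314 beyond it. The SD is the pooled spread of library medians within the 6 groups, with ERKO E2 replicate 3 included. Since that library widens the SD, the count does not show that the medians are stable. The cause of the differences between settings was not tested. FPKM gives no read counts, so the limit that depth sets on low members was not computed.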

Other observations

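Ndufs5, an accessory subunit of complex I, was below 0.001 FPKM in 12 libraries, the highest of these at 0.000123 FPKM, and between 2.92 and 8.89 FPKM in the other 6, which were spread over KIKO E2, KIKO oil, ERKO E2 and ERKO oil. All 6 WT libraries were in the first set. It is among the 11 of 89 members with a near-identical copy elsewhere in the transcript set (Atp5l had 9 copies, the most), and how fragments were shared between such copies is not given in the sources used here.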
